A study of Mus musculus with 7 samples.

Results

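Long intergenic noncoding RNAs were examined in naive CD8 T cells with and without the tyrosine kinase Lck. The array names 4607 such transcripts by a genome interval on the mm9 mouse build and a strand, forward or reverse, in place of a gene symbol. They were chosen by that form of name alone, among probes that are not controls, and are called regions here. They account for 4607 of the 34797 names on the array and for 16181 of its 55681 probes. Of the regions, 2318 lie on the forward and 2289 on the reverse strand of 3540 intervals, and 1067 intervals carry both. A region has 1 to 10 probes of 60 bases, with a median of 3, and its interval has a median length of 10676 bases.

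Long intergenic noncoding RNAs are transcripts from DNA between protein-coding genes that carry no long open reading frame. As a class they tend to be scarcer and more specific to a cell type than messenger RNAs, and some act on chromatin or on the genes beside them. Others are by-products of transcription from a neighbouring promoter or enhancer, so that the genes near such a transcript, and the strand it comes from, are a usual part of its description.

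Total RNA came from lymph node cells of OT-1 heterozygous, Rag-/- mice, sorted as CD8b+ and CD44low. OT-1 is a transgenic T cell receptor for an ovalbumin peptide, and Rag loss prevents rearrangement of any other receptor. The WT group has 3 arrays. The 4 arrays of the other group, called Lck-off here, came from OT-1 Lck-/- mice that had relied on a knocked-in Lck expressed under doxycycline, taken 7 days after the drug was left out of the diet. No Lck-/- mice kept on doxycycline are among the samples used here, and the sources used here do not state the diet of the WT mice, so genotype, diet and loss of Lck cannot be told apart. The series design calls the samples biological replicates. The Lck messenger itself, on the single probe for it, had levels of 8.98 to 9.02 in WT against 8.52 to 8.83 without it, and fell by 0.37 ± 0.09 (SE) on the log2 scale (limma, adjusted p = 0.0494).

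All levels here are log2 processed intensities relative to the 75th percentile of the same array, so that 0 is that percentile and each step of 1 is a 2-fold change. Differences are Lck-off minus WT from limma's moderated fit over all 18256 measured names, and a call is a Benjamini-Hochberg adjusted p under 0.05 over those names. The defining genes of CD8 T cells were bright and close between groups, with 8 of 8 measured, 1 called higher (Lat, limma adjusted p = 0.0467) and summed linear levels of 1433 to 1508 in WT and 1475 to 1550 in Lck-off. Of macrophage markers 1 of 7 measured was called higher (C1qb, 0.59), and of immature thymocyte markers 1 of 2, Dntt, which adds bases at receptor junctions and differed by 2.23. The summed macrophage markers were 41.4 to 58.3 in WT and 50.8 to 60.4 in Lck-off, and those of thymocytes 23.8 to 27.0 and 64.6 to 82.8, with Rag1 and Ptcra not above background on any array. The macrophage sums are mostly Itgam, which differed by 0.14. C1qa, C1qc, Fcer1g, Cd68 and Csf1r differed by 1.38, 1.75, 0.90, 0.31 and 0.20, none of them called. Dendritic cell markers had 0 of 7 called by limma (2 at an unadjusted p under 0.05), a median difference of 1.07 and sums of 245 to 266 and 254 to 315. The dendritic sums are mostly Siglech, which differed by 0.10. H2-Ab1, H2-Eb1, Cd74 and H2-Aa differed by 1.40, 1.26, 1.12 and 1.07, Zbtb46 by 0.21 and Flt3 by -0.69. Of the listed interferon-induced genes, 55 of 59 measured were called higher, on a list chosen with earlier results of these data known. Over all names 3.81% were called higher. The part of these markers in the results on regions was not tested, and in bulk RNA fewer cells of a type and less RNA per cell cannot be told apart. Xist, the RNA of the inactive X chromosome, stood at -5.70 in WT replicate 1 and -5.52 in Lck-off replicate 1 and between 0.40 and 0.89 on the other arrays.

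The probes that measured the largest rises and falls are shown because a region is known on this array only by what its 60-base probe matches. Each is printed 5′ to 3′ in the sense of the region, and capitals mark the bases it shares, as 1 unbroken run of at least 20, with a probe of a gene or of another interval. First come the 4 largest rises.
chr15:59966962-59972812 forward: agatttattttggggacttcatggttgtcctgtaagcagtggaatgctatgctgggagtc
chr1:85304494-85305390 reverse: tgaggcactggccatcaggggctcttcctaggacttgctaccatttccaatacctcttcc
chr4:146345650-146356650 forward: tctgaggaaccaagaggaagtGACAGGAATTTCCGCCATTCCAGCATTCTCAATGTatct
chr7:111530578-111539097 reverse: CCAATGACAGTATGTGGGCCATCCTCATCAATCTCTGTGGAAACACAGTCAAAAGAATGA
The 4 largest falls follow.
chr9:118291593-118324230 forward: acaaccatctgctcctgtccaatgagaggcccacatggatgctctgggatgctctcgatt
chr14:106250821-106261843 reverse: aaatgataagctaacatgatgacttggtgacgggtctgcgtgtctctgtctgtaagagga
chr10:117021051-117038683 forward: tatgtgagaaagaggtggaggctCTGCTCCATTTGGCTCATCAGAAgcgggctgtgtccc
chr15:59952094-60018666 reverse: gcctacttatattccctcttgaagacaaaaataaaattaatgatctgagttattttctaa

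The chromosome 7 probe is in capitals throughout because the array's probe for the gene Trim30c has the same 60 bases, so that region and gene are 1 measurement. The capitals of the chromosome 4 probe, 35 bases, are the reverse complement of a stretch in a probe for chr4:145450600-145461600 on the reverse strand, and the whole probe is the reverse complement of 1 for its own opposite strand, which did not pass the detection filter. Those of the chromosome 10 probe, 23 bases, are the reverse complement of a stretch in a probe for chr17:33995525-34028025, the interval around the kinesin gene Kifc1. Among the tested regions 123 share such a run with the probe of a named gene, and 9 of the called regions do.

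The label "intergenic" does not hold for every interval on this array. Of the tested regions 444 (18.1%) have the probe of a measured gene inside their interval, and 642 have the probe of any gene. Only probe positions were compared, so a gene that spans an interval without a probe in it is not counted. The intervals run from 62 bases to 7128 kb, with 5 over 500 kb, none of them called.

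Most regions gave little signal. On single arrays 26.1% to 34.8% of the regions' probes were well above background, against 49.3% to 54.3% of all other probes. The WT arrays stood at 29.6%, 27.9% and 30.8%, and the Lck-off arrays at 26.1%, 32.8%, 34.8% and 28.1%. The groups overlapped, with means of 29.4% ± 1.43 (SD, n = 3) and 30.5% ± 4.01 (SD, n = 4), and without Lck-off replicate 3 the sign of the difference turned, from 1.04 to -0.40 percentage points. The 3 highest shares belong to the 3 arrays in the first row of the slide, WT replicate 3 and Lck-off replicates 2 and 3.

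Of the 4607 regions, 1911 had a probe well above background on all 7 arrays and 1312 had none on any array. A further 843 were above background in places but had no probe that was so on 3 arrays, which left 2452 regions to test. Their median WT level was -1.61, where that of the other names tested was 1.38. In 4 regions every Lck-off array and no WT array had a probe above background, and 2 of them were called: chr1:85304494-85305390 reverse and chr4:146345650-146356650 forward. Such regions passed the detection filter through Lck-off alone, so their calls are no support for a difference. The opposite held for 1 region, chr6:112552041-112560067 on the reverse strand, which was not called (limma, adjusted p = 0.124).

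Lck-off cells differed from WT in 110 of the 2452 regions (4.49%), with 58 higher (2.37%) and 52 lower (2.12%). Over all names 8.39% were called, 3.81% higher and 4.58% lower, and over names other than regions 8.99%, so the regions' share is below the array's. Above a WT level of 2 it was 7.60% against 8.17% of other names, and between -2 and 0 it was 4.28% against 10.8%. The difference in shares was not tested. In 4 of the 58 rises, and in 0 of the falls, the measured probe was above background in the higher group alone. Others had fewer than 3 arrays of the lower group above background, so they too passed the detection filter only with the higher group. Calls of either kind are no support for a difference on their own. In 91 of the 110 the measured probe was above background on all 7 arrays. A change of at least 2-fold was called in 36 regions (1.47%, against 2.43% of all names), 18 in each direction, but in 14 regions with normexp background correction and in 13 in the authors' deposited table. All 110 showed no overlap between the 3 WT and the 4 Lck-off arrays, as did 11.7% of the regions tested and 21.8% of all names. The median standard error was 0.16 for regions and 0.11 for other names, and the median difference of the regions was 0.02.

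The called regions fall into 93 separate stretches of the genome, 13 of which hold several overlapping or opposite regions. Of the 65 called regions with a further probe above background, 54 had every such probe moving the same way, and 128 of the 140 further probes did so. The other 45 rest on 1 probe. Called regions are spread over the chromosomes, from 16 of 202 on chromosome 1 and 13 of 164 on chromosome 4 to 0 of 121 on chromosome 3 (limma, with 14 at an unadjusted p under 0.05). Within 10 Mb of Lck itself, 6 of 52 tested regions were called (11.5%), 3 higher and 3 lower. Over all tested regions 4.49% were called, and over all names 8.39%. These differences in share were not tested.

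The number of calls depended on single arrays. Leaving out WT replicate 2 left 72 calls in all and 33 falls, and leaving out Lck-off replicate 4 left 37 rises. With the row of the slide as a block 95 regions were called. Row 1 alone, with 1 WT and 2 Lck-off arrays, gave 5 calls, and row 2 alone, with 2 of each, gave 0 by limma and 325 at an unadjusted p under 0.05.

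**Figure D1:**
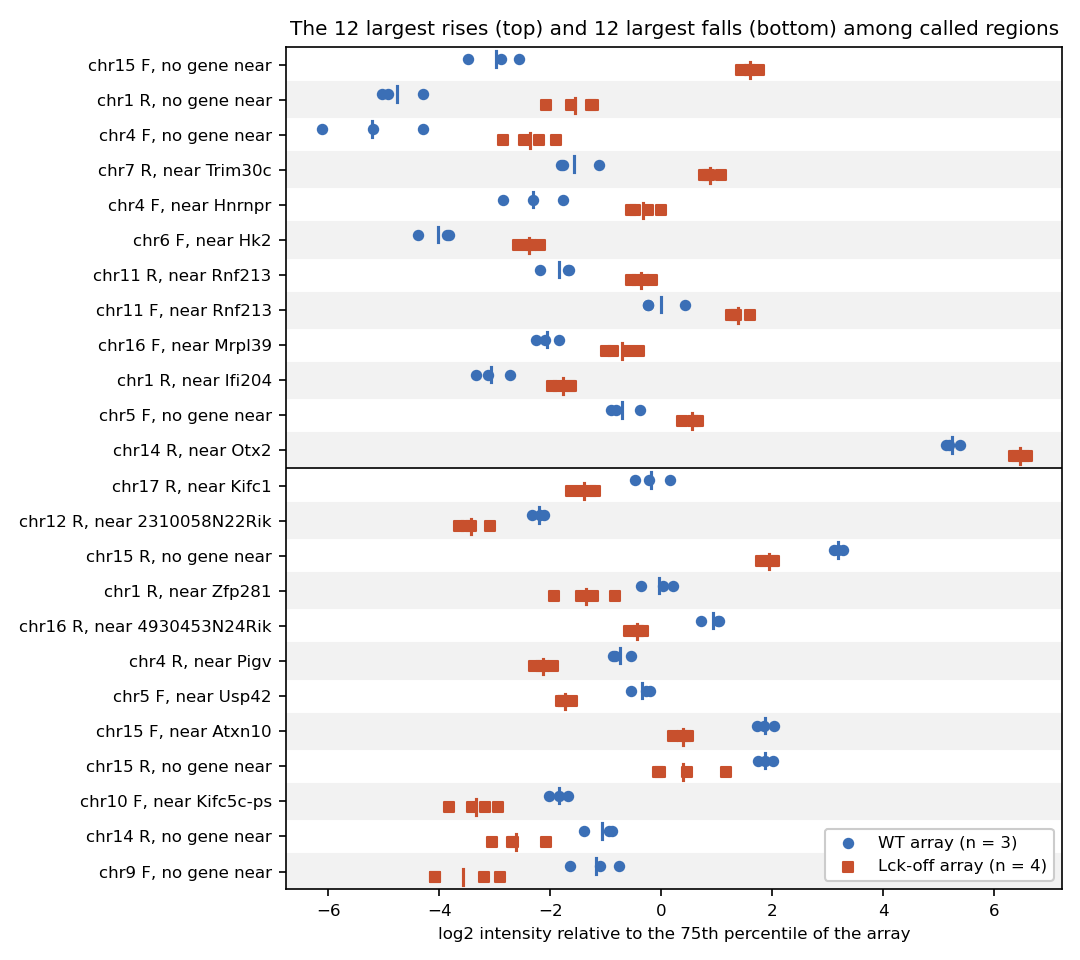
Levels of the 24 regions with the largest called changes on each array; the horizontal axis is log2 intensity relative to the array's 75th percentile, circles are the 3 WT arrays, squares the 4 Lck-off arrays and bars the group means. Rows are ordered by difference, from 4.57 at the top to -2.39 at the bottom, and in no row do circles and squares overlap.

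The largest change was a rise on the forward strand of chr15:59966962-59972812, which has no measured gene within 50 kb. Its measured probe stood at -2.56, -3.49 and -2.89 in WT against 1.77, 1.43, 1.57 and 1.61 in Lck-off. All Lck-off arrays lay above the percentile and every WT array below it. The difference was 4.57 ± 0.21 (SE, limma adjusted p = 0.000193), a 23.8-fold rise. This probe was above background on 2 of 3 WT arrays, so it passed the detection filter only with the Lck-off arrays. The other 4 probes, which follow it along 1 short stretch, differed by 4.58 to 5.85. Of these, 2 were not above background on any WT array and rose 36.9-fold and 55.5-fold. Each WT array was counted at the probe's own level or that of the array's faintest probe above background, whichever is higher. Folds counted so make no allowance for the spread of the arrays. These 2 probes passed the detection filter through Lck-off alone, so they are no support for a difference.

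The reverse strand of the same interval went the other way. Its WT levels were 3.28, 3.18 and 3.12 and its Lck-off levels 2.02, 1.88, 2.04 and 1.80, without overlap. It fell by 1.26 ± 0.09 (SE, limma adjusted p = 0.000489), and its 3 further probes above background fell by 0.97 to 1.14. The probes of the strands lie on opposite sides of the middle of the interval, and their 2 measured probes share no more than 7 complementary bases in a row. A longer region around it on the reverse strand, chr15:59952094-60018666, has 1 probe, with levels of 2.01, 1.87 and 1.75 in WT compared with 1.17, -0.03, 0.47 and -0.06 in Lck-off. It differed by -1.49 ± 0.29 (SE, limma adjusted p = 0.0232), and the call was lost on leaving out any 1 array other than Lck-off replicate 1, with adjusted p up to 0.0753.

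**Figure D2:**
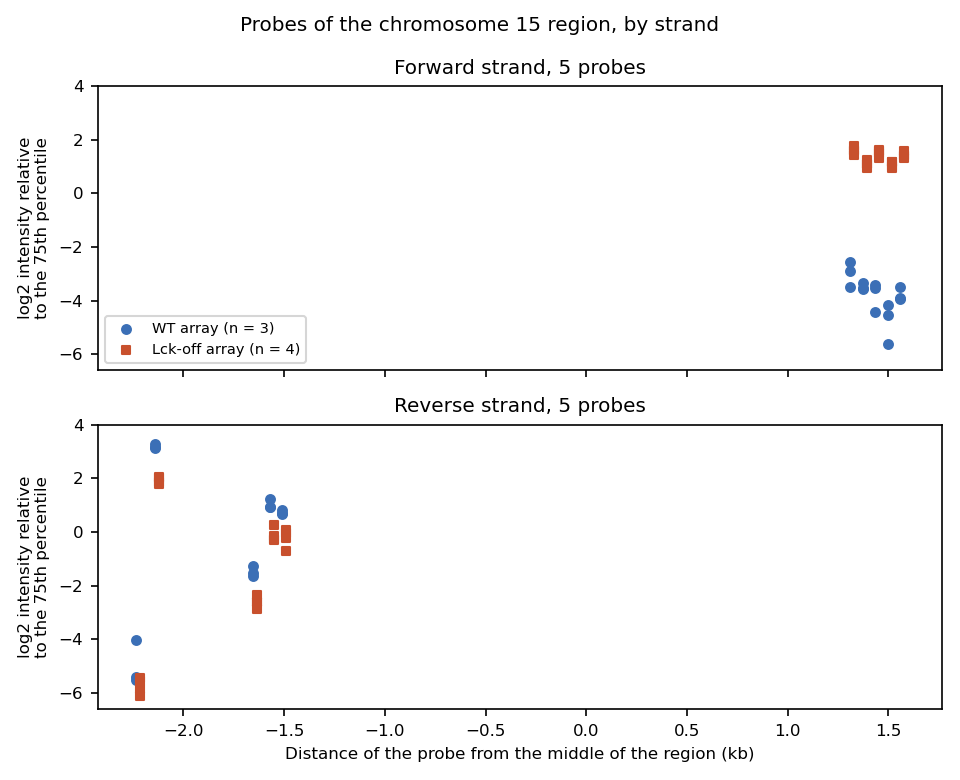
Levels on every array of the 5 forward and 5 reverse probes of the chromosome 15 region, by distance of the probe from the middle of the region in kb; the vertical axis is log2 intensity relative to the array's 75th percentile. The forward probes lie to the right of the middle and are higher in Lck-off (squares, n = 4) than in WT (circles, n = 3); the reverse probes lie to the left, and the 4 above background are lower in Lck-off.

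The next rises came from regions at background in WT. The reverse region chr1:85304494-85305390 had no WT array well above background, with values of -4.30, -5.04 and -4.93. In Lck-off it stood at -2.08, -1.63, -1.23 and -1.26, all clear of WT. Counted as for chromosome 15, it was 9.22-fold higher and its 2 further probes 11.7-fold and 12.3-fold. The forward region chr4:146345650-146356650, with 1 probe, went from -5.19, -4.30 and -6.12 to -2.48, -2.86, -1.89 and -2.20, which counts as 6.84-fold higher. Under the alternatives run, the log2 differences of these 2 regions were as low as 0.85 and 0.59. Neither has a measured gene within 50 kb. The region chr4:145450600-145461600, which shares the complementary run, was called higher by 0.81.

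Some rises lay beside a nearest gene that did not pass the test. The forward region chr4:135896689-135918414 lies 0.1 kb from the probe of Hnrnpr, an RNA-binding protein of the spliceosome, on the same strand. This region is among the 6 called within 10 Mb of Lck. It was at -1.77, -2.32 and -2.86 in WT against -0.48, -0.55, -0.01 and -0.24 in Lck-off, a difference of 2.00 ± 0.26 (SE, limma adjusted p = 0.00404). A further probe differed by 2.09, and another one, elsewhere in the region, by -0.56 with its groups overlapping, so the probes of this region did not move as 1. The mean over its kept probes was 1.18. Hnrnpr differed by 0.11 ± 0.07 (SE, adjusted p = 0.409). Zfp46, a zinc finger gene 46.8 kb away on the same strand, went the other way and fell by 0.40 ± 0.09 (SE, limma adjusted p = 0.0442).

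The forward region chr6:82608223-82669023 rose by 1.65 ± 0.16 (SE, limma adjusted p = 0.00143), from -4.39, -3.83 and -3.87 to -2.59, -2.41, -2.18 and -2.35. It was above background on 1 WT array and on all Lck-off arrays. It passed the detection filter only with the Lck-off arrays, so its call is no support for a difference. It lies 6.0 kb from Hk2, hexokinase 2 of glycolysis, on the opposite strand, whose levels of -3.44, -3.06 and -3.01 in WT compared with -5.58, -6.02, -3.09 and -5.52 in Lck-off overlapped (limma, adjusted p = 0.153). The forward region chr16:84708695-84708806, near the mitochondrial ribosomal protein gene Mrpl39, differed by 1.35, and the forward region chr5:15176325-15223375 by 1.26. The reverse region chr14:49314574-49358174 was already bright, at 5.14 to 5.39 in WT and 6.35 to 6.59 in Lck-off (1.23 ± 0.10, SE, limma adjusted p = 0.000686). Its probe shares 22 bases in a row with a probe for the ribosomal protein gene Rpl11, and the nearest gene, the homeobox factor Otx2, was dim and not called.

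Among the falls, chr9:118291593-118324230 forward went from -0.77, -1.65 and -1.11 to -4.08, -2.90, -3.20 and -4.08, above background on 2 of the 4 Lck-off arrays. It fell by 2.39 ± 0.35 (SE, limma adjusted p = 0.00688), and its other 5 probes stayed below the detection filter. The reverse region chr14:106250821-106261843 fell by 1.55 ± 0.23 (SE, adjusted p = 0.00755), also on 1 of 5 probes. Neither has a measured gene within 50 kb.

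The forward region chr10:117021051-117038683 had all 5 probes above background in WT. The measured one was at -2.02, -1.68 and -1.84 in WT against -2.95, -3.18, -3.82 and -3.42 in Lck-off, a difference of -1.50 ± 0.20 (SE, limma adjusted p = 0.00511). Of the 4 further probes, 1 was above background on no Lck-off array and was 3.88-fold lower there, and the others differed by -1.76, -1.70 and -1.21. All but the last of these were called when each probe was tested on its own. The probe with the 3.88-fold fall passed the detection filter through WT alone, so its call is no support for a difference. The measured probe and the others were above background on 1 or 2 Lck-off arrays, so they too passed that filter only with WT. The array places the kinesin pseudogene Kifc5c-ps inside the same interval, and its probe differed by -0.06 (adjusted p = 0.885). On chromosome 17 the reverse region chr17:34018371-34019394 holds a probe of Kifc1, a minus-end directed kinesin of the mitotic spindle. It fell by 1.21 ± 0.17 (SE, limma adjusted p = 0.00590), from -0.48, 0.16 and -0.21 to -1.20, -1.44, -1.63 and -1.26, with 2 further probes at -1.36 and -1.68. Kifc1 itself fell by 1.82 ± 0.26 (SE, adjusted p = 0.00639). Also within 50 kb, Cd320, the cellular receptor for transcobalamin, fell by 0.76, while Daxx, a histone H3.3 chaperone on the interferon list, rose by 0.89.

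The remaining large falls stood beside genes that were not called. The forward region chr15:85298353-85298992, 5.0 kb from Atxn10, was at 1.85, 1.73 and 2.03 in WT compared with 0.49, 0.21, 0.38 and 0.45 in Lck-off. It fell by 1.49 ± 0.10 (SE, limma adjusted p = 0.000465), while Atxn10 differed by -0.15 (adjusted p = 0.391). The reverse region chr4:133212951-133214017, 3.1 kb from Pigv, a mannosyltransferase of GPI anchor synthesis, fell by 1.39, and a further probe by 2.12. The third was above background on no Lck-off array and was 2.30-fold lower there. It passed the detection filter through WT alone, so it is no support for a difference. Pigv differed by -0.24 (limma, adjusted p = 0.104). The region beside Pigv is also among the 6 called within 10 Mb of Lck. The reverse region chr16:64758224-64765674 fell by 1.36, and a shorter region within it, chr16:64761963-64762369, by 1.03. The forward region chr5:144519149-144527843 fell by 1.40 and the reverse region chr12:117623500-117643575 by 1.21. The reverse region chr1:138473514-138476054 differed by -1.32 (limma, adjusted p = 0.0245), and lost its call without WT replicate 1, WT replicate 2 or Lck-off replicate 4, with adjusted p up to 0.0840.

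The second question was which genes lie near the changed regions. Of the 110 called regions 87 have a measured gene within 50 kb, and in 43 of those (49.4%) at least 1 such gene was itself called. Among the regions that were not called this was so for 258 of 1641 (15.7%), and over all names 8.39% were called. Region and gene were read from the same 7 arrays and several regions share a gene, so these shares are a description with no test. In 36 of the 43 a called gene went the same way as the region, as in 143 of the 258. Within 10 kb the count was 28 of 62, all 28 the same way, against 99 of 972 (10.2%) for regions not called, 66 of them the same way. These counts include the region with the probe sequence of Trim30c, whose agreement was fixed in advance. Over genes with a RefSeq messenger accession alone, a called gene within 10 kb went the same way in 17 of 19 called regions and in 52 of 77 others. Of the rises 29 of 47 had a called gene within 50 kb, and of the falls 14 of 40.

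The count of 43 was lower without WT replicate 1 (28), WT replicate 2 (26), WT replicate 3 (26), Lck-off replicate 3 (26) or Lck-off replicate 4 (25).

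The nearest gene lay on the same strand for 62 called regions, at a median of 1.88 kb, and 50 of the pairs differed in the same direction. For 25 it lay on the opposite strand, at a median of 9.17 kb, and 16 pairs had the same direction. Where the nearest gene was called, the direction was shared by 24 of 24 pairs on the same strand and by 9 of 10 on opposite strands. The same-strand pair with Trim30c has 1 probe sequence, so its direction was fixed in advance. Probes also share 27 bases in a row for chr7:111526943-111545093 reverse with Trim30c, and 31 for chr8:40100925-40196350 forward with Tusc3. The remaining 23 called regions, 11 higher and 12 lower, had no measured gene within 50 kb. Called regions with the probe of a measured gene inside their interval numbered 26, and in 15 of these such a gene was called. Whether region and gene are then parts of the same transcript was not tested, so the shared directions need not come from separate transcripts.

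**Figure D3:**
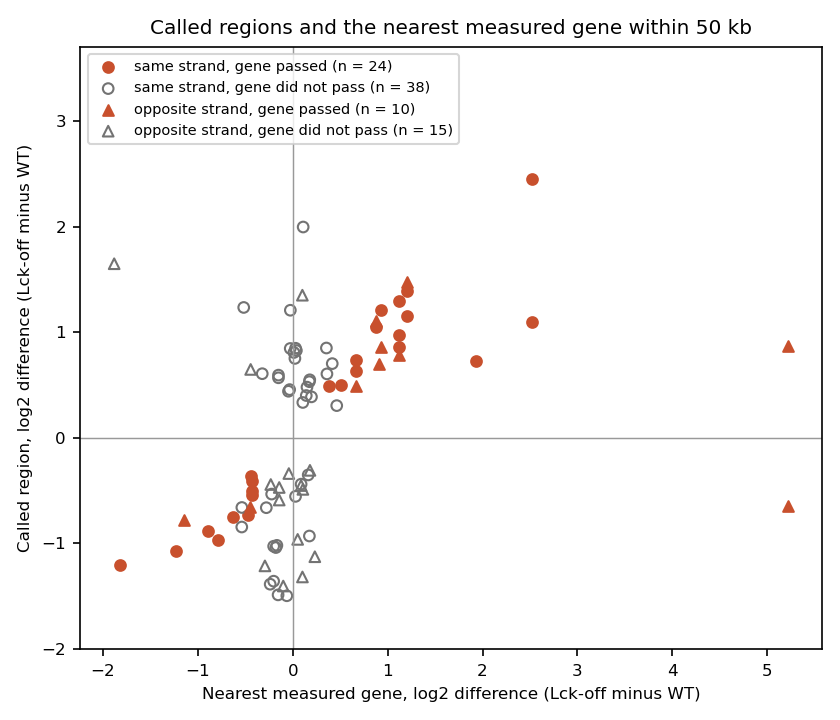
Difference of each called region against that of its nearest measured gene within 50 kb, both as log2 Lck-off minus WT (87 regions); filled symbols are genes that passed the test, circles genes on the strand of the region and triangles genes on the opposite strand. The 24 filled circles lie in the quadrants of shared direction, while open symbols spread around 0 for the gene; the topmost filled circle is the region with the same probe as Trim30c.

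Interferon-induced genes supplied a set of these neighbours. Of 26 tested regions within 50 kb of a measured gene on the interferon list, 13 were called higher and 1 lower, with a median difference of 0.36. Over all regions 2.37% were called higher, and over all names 3.81%. The rises came from 4 places: beside Ifi204, Trim30a, Samd9l and Herc6. The list was chosen with earlier results of these data known, and several of these regions overlap or share probe sequence. The counts are therefore a description with no test. Of the 39 distinct called genes within 50 kb of called regions, 5 are on the list. Of 6 tested regions within 50 kb of Isg15, the ubiquitin-like modifier, 0 were called by limma (0 at an unadjusted p under 0.05), with differences from -0.66 to 0.17, although Isg15 itself rose by 1.97 ± 0.24 (SE, limma adjusted p = 0.00317).

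The Ifi204 locus held the most. Ifi204 belongs to the interferon-inducible family of DNA-binding proteins with a HIN domain, and rose by 1.12 ± 0.16 (SE, limma adjusted p = 0.00549). Regions called higher lay on both strands, 6 in all within 50 kb. The brightest, chr1:175705225-175717250 reverse, stood at 4.36, 4.84 and 4.81 in WT against 5.99, 5.41, 5.77 and 5.71 in Lck-off and rose by 1.05 ± 0.17 (SE, adjusted p = 0.0105). Its forward partner rose by 1.11 from a mean of -2.38. The predicted gene Gm16340 inside that interval rose by 0.88, and the 3 other reverse regions and 1 forward region, 5.5 to 5.7 kb from Ifi204, rose by 0.78 to 1.29. Those 3 reverse intervals overlap one another. The measured probe of the 1.29 rise shares 34 bases in a row with a probe of the brightest region, so these rises are not separate.

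In the Trim30 cluster, whose members are ubiquitin ligases with a RING finger, chr7:111530578-111539097 reverse was at -1.80, -1.13 and -1.77 in WT compared with 0.82, 0.77, 0.85 and 1.08 in Lck-off. It rose by 2.45 ± 0.18 (SE, limma adjusted p = 0.000551), and Trim30c, read by the same 60 bases on other spots, by 2.53 ± 0.17. Its 2 further probes rose by 2.33 and 2.49. A wider reverse region, chr7:111526943-111545093, rose by 1.09, and its forward partner differed by -0.12 (adjusted p = 0.561). Nearby Trim30a rose by 0.86, Trim12c by 0.71 and Trim34b by 0.86.

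Around Herc6, an interferon-induced ubiquitin ligase with a HECT domain, the forward region chr6:57583950-57624216 went from 1.59, 1.80 and 1.60 to 2.48, 2.76, 3.01 and 3.22 (1.21 ± 0.17, SE, limma adjusted p = 0.00623) and Herc6 rose by 0.93. The reverse partner rose by 0.86, but its probe and the forward one are complementary over 57 bases. That reverse probe was above background on 1 WT array and 4 Lck-off arrays, so it passed the detection filter only with Lck-off. Beside Samd9l, a restriction factor for viruses and cell growth, 3 regions rose by 0.49 to 0.73 and Samd9l by 0.66. At Rnf213, a giant ubiquitin ligase with ATPase domains that is not on the list, chr11:119250824-119286324 rose on both strands. Its reverse strand went from -2.18, -1.65 and -1.68 to -0.45, -0.16, -0.54 and -0.31 (1.47 ± 0.16, SE, limma adjusted p = 0.00199), and its forward strand rose by 1.39 ± 0.18. Rnf213 rose by 1.20, while its neighbour Slc26a11, an anion transporter, fell by 0.66.

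Falls also came in pairs with genes. The forward region chr17:5798656-5802900 fell by 1.07 and 3300005D01Rik, 0.3 kb away on the same strand, by 1.23. The reverse region chr10:62267317-62269871 fell by 0.88 with Tet1, which oxidises methylated cytosine, 4.6 kb away and lower by 0.89 ± 0.12 (SE, limma adjusted p = 0.00559). The forward region chr14:22267795-22319045 fell by 0.75 with Adk, adenosine kinase, lower by 0.63. The called regions and the called genes within 50 kb make 63 pairs. These include the Trim30c pair with 1 probe sequence, and pairs with 2810011L19Rik, which passed the detection filter through Lck-off alone. Of the 63 pairs, 51 had the same direction. Among those that did not was the reverse region chr1:162933979-162944379, which rose by 0.75 ± 0.14 (SE, adjusted p = 0.0168) 22.0 kb from Gas5, a host gene of small nucleolar RNAs that fell by 1.08 ± 0.08. These last 4 regions were chosen after their values were seen.

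The long noncoding RNAs of a chosen list of gene names were read as well. Over all names 3.81% were called higher and 4.58% lower, so the 20 measured are too few to set their counts apart. Of 47 on the list 28 are on the array and 20 were measured, with 0 called higher by limma (1 at an unadjusted p under 0.05) and 2 lower, Gas5 and Snhg3, and a median difference of -0.08. Snhg3, also a host of small nucleolar RNAs, stood at 4.15, 3.88 and 3.84 in WT against 1.84, 1.57, 1.82 and 1.84 in Lck-off and fell by 2.19 ± 0.11 (SE, adjusted p = 0.000245). Malat1 differed by 0.29 and Neat1 by 0.10, both with groups that overlapped. Outside the list, 2810011L19Rik, now Tunar, differed by 5.22 ± 0.20 (SE, limma adjusted p = 9.3e-05), from a WT mean of -5.87. On each WT array it lay below the faintest probe above background, so it passed the detection filter through Lck-off alone. Its call is therefore no support for a difference. The reverse regions chr12:106566735-106624460, around its probe, and chr12:106572079-106575298 differed by 0.87 and -0.65. This gene was named after its values were seen.

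Both strands were tested in 461 of the 1067 intervals that carry both, and 1 strand in 394. In 7 both strands were called, and in 6 of these in the same direction. Besides the chromosome 15 interval, which was the exception, these were the intervals at Rnf213, Herc6 and Samd9l, 2 at Ifi204, and, named to complete the count, chr19:56820850-56837925, which fell by 0.45 on the forward and 0.44 on the reverse strand. The measured probes of the strands were complementary over 57 bases at Herc6 and 38 at Samd9l but over no more than 7 in the other 5. At Rnf213 the measured forward probe is complementary over 46 bases to a further reverse probe, and the measured reverse probe over 27 bases to a further forward one. In 28 intervals 1 strand was called, and the other strand had the same direction in 14.

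**Figure D4:**
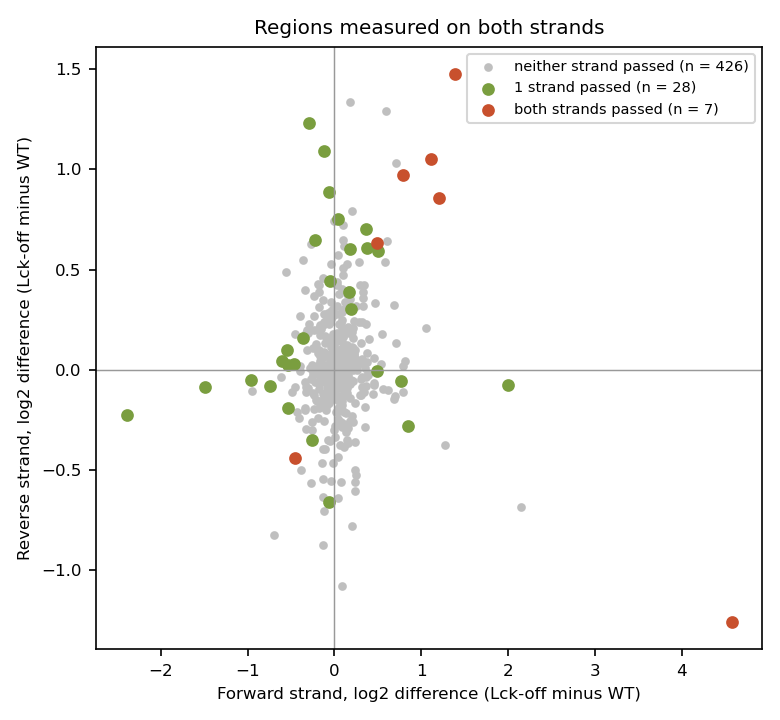
Forward against reverse strand difference, as log2 Lck-off minus WT, for the 461 intervals tested on both strands; grey points have neither strand called (426), green points 1 strand (28) and orange points both (7). Of the orange points 5 lie at the upper right and 1 at the lower left, and the chromosome 15 interval lies alone at the lower right.

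Many of these sizes differed under other processing. With normexp correction and an offset of 50, 14 of the 24 largest changes, and 15 in the authors' deposited log2 values, whose steps are not given, were smaller by more than 1.5 times, in each case in the same direction. In those deposited values the forward chromosome 15 region differed by 2.91, chr1:85304494-85305390 by 0.85 and the chromosome 9 region by -0.87.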

How the data were processed

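Total RNA of 7 samples was measured on 1-colour Agilent arrays of 1 slide. The deposited intensity values were extracted, per the file headers, by Feature Extraction 10.7.3.1 on design 028005 (mm9 positions), with background subtraction and spatial detrending. A second deposited table has values that look like log2. For it the submitters' processing notes give limma, with no version, and the sources used here give no steps.

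Levels are log2 intensities less the 75th percentile of non-control spots on that array, with non-uniform spots set to missing and spots of a probe averaged. Probes had to be well above background on 3 or more of the 7 arrays (25608 of 55681; 4991 of regions were kept), and each name was read by its brightest kept probe. limma 3.58.1 (R 4.3.3) was fitted to all 18256 names, two-sided, with p-values adjusted by Benjamini and Hochberg. These p-values measure the spread between samples, and the number of arrays limits the precision. In simulated data of this size 24%, 72%, 98% and 100% of names changed by 0.5, 1, 2 and 3 were called, and 3.29% of calls were false. The simulation gave all names a common distribution of spread, whatever their level, and changed fewer names than were called here. Its shares therefore do not describe the dimmer regions in particular.

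Distances run from a region's interval to a gene's probe on the array's annotation. Of 23920 neighbour symbols, 86.1% matched a current symbol in RefSeq's GRCm38.p6 table, which served only for naming. Named regions are the 12 largest rises and 12 largest falls called without overlap. Named genes are the nearest measured gene of each within 50 kb, and called genes within 50 kb of the called regions of largest difference. The members, lists and tests were chosen with earlier results of these data known. Sequences are the probes' own, from the deposited files. Pairing by replicate number was checked by the correlation of deviations from the group means (0.11, 0.05 and -0.01 for the same numbers), which does not show that the numbers pair the samples.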

Additional observations from a re-analysis of the deposited data

Results flagged for a closer look

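Among 59 values tested for 1 array far from the rest of the Lck-off group, 5 stood out, all of genes near called regions and none of a region itself. Chance flags about 5% of such groups. The number given is the array's gap to its nearest neighbour as a share of the group's whole range. For Cd320 it was 0.966, with Lck-off replicate 2 at 2.70 and the others between 2.36 and 2.38. For Gm16340 it was 0.888, with the same replicate at 3.00 and the others between 3.40 and 3.45. For Otx2 it was 0.857, again with replicate 2, at -3.09, and the others between -3.80 and -3.70. For Trim30c it was 0.853, with replicate 4 at 1.14 and the others between 0.91 and 0.94. For Hk2 it was 0.830, with replicate 3 at -3.09 and the others between -6.02 and -5.52.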

How the results depend on the processing

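No called difference changed direction under the alternatives run. The difference in detection, within the spread of the arrays, turned to -0.40 without Lck-off replicate 3. Scalings, array weights, other moderation and the slide row as a block (95 calls) left the counts within 1.5 times. Without the filter on dim probes the counts were 57 called, 27 higher, 30 lower, 20 with a called gene within 50 kb and 3 intervals on both strands. Called changes of 2-fold numbered 14 with normexp correction and 13 in the authors' deposited table. With the replicate number as a block, which used 6 arrays, the counts were 31, 18, 13, 22 of 2-fold, 5 and 1. In slide row 1 alone (3 arrays) they were 5, 5, 0, 5, 1 and 0, and in row 2 alone (4 arrays) all 0 by limma, with 325 regions at an unadjusted p under 0.05. A limit of 10 kb in place of 50 kb gave 28 regions with a called gene. Leaving out 1 array at a time gave 72 to 113 called, 37 to 63 higher, 33 to 52 lower, 31 to 41 of 2-fold, 25 to 40 with a called gene, 5 to 8 intervals on both strands, and -0.40 to 2.48 percentage points of detection, Lck-off minus WT (1.04 with all). Chosen after seeing the data, counting overlapping regions once gave 93 calls, leaving out probes that share a run with a gene's gave 101, and distances from the measured probe gave 40 regions with a called gene. The causes of these shifts were not tested. Fewer arrays were fitted in the block and row settings.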
